A study of Mus musculus with 6 samples.

Results

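The cell proliferation genes are 40 transcripts whose products drive a cell from G1 through DNA replication and mitosis, and they were examined as a readout of dividing cells in the mouse brainstem. They were taken from the deposited table by gene symbol, with a mean of at least 0.1 CPM (read counts scaled to a fixed library total) over all libraries as the second condition. All 40 listed symbols were in the table and all 40 met this mean, beside 16762 of the 18058 genes deposited. By product, 2 are the proliferation antigen Mki67 and the DNA topoisomerase Top2a, 6 are G1 cyclins and kinases, 9 act in replication licensing and at the fork, 4 supply nucleotides, 4 are mitotic cyclins and Cdk1, 7 are mitotic kinases, checkpoint proteins and members of the chromosomal passenger complex, 2 work with the anaphase-promoting complex, and 6 are spindle motors, spindle-binding and kinetochore proteins.

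A dividing cell first builds D-type and E-type cyclins, which switch on kinases that release E2F factors, and these raise the transcripts of the replication machinery. Cyclin B with Cdk1, the Aurora and Polo kinases and the spindle checkpoint then carry the cell through mitosis, and many of their transcripts are confined to the last part of the cycle. In the juvenile brainstem most neurons have left the cell cycle, and oligodendrocyte precursors are the best known parenchymal cells that still divide, while D-type cyclins and Pcna are also transcribed in cells that do not divide.

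Total RNA was sequenced from snap-frozen whole brainstems of naive 1-month-old mice, 3 wild type (WT, C57BL/6J) and 3 Rag1-/-, each from a separate animal. The Rag1-/- strain named in the study's methods carries a targeted Rag1 allele on a C57BL/6 background (B6.129S7), and such mice have no mature lymphocytes of the T or B lineage. The study asked which transcripts of the host brainstem differ between mice that do and do not permit implanted human neural progenitors to form low-grade gliomas. Estimated depth was 31600000 to 46400000 reads a library, at which 3 reads equal 0.0646 to 0.0950 CPM. Read numbers given below are estimates at that depth. Rag1 itself was at 0.246 ± 0.137 CPM (SD, n = 3) in WT and at 3.18 ± 0.750 CPM (SD, n = 3) in brainstems labelled Rag1-/-. Its transcripts were higher under that label, but read counts do not show whether a targeted allele makes a working product. The labels could therefore not be checked from this gene, and every direction below rests on them. Xist, the X-inactivation transcript, stood at 172 CPM in WT replicate 1, at 177 CPM in WT replicate 2 and at most 2.93 CPM in the other 4 libraries. The Y-linked Ddx3y was at 45.2 to 56.2 CPM in those 4 and at most 0.283 CPM in WT replicates 1 and 2. By these transcripts sex went partly with the label: the brainstems labelled Rag1-/- were male and WT held both sexes, so genotype and sex can be told apart only through WT replicate 3. Transcripts of brainstem neurons were present in all 6 libraries, among them Slc17a6 at 205 to 264 CPM, Tph2 at 10.002 to 58.0 CPM and Chat at 5.96 to 9.28 CPM. The hindbrain gene Hoxb5 was at 0.855 CPM in replicate 2 labelled Rag1-/- and at 4.77 to 14.3 CPM in the other libraries.

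The stretches upstream of the start sites show what these genes do and do not share. For 33 of the 40 genes RefSeq (assembly GRCm38.p6) gave a promoter entry, and the 250 bases before its start were searched on both strands for the cell-cycle genes homology region (CHR, TTTGAA or TTCGAA), for the CCAAT box (CCAAT) and for E2F words (TTTCCCGC, TTTCGCGC, TTTGCCGC or TTTGGCGC). The 5 shown here were chosen because they hold Mki67 and Top2a as the usual histological and transcript markers of division, Cdk1 as the mitotic kinase with all 3 kinds of word, Mcm6 with E2F words and no CHR, and Cdk4 with none of them. Capitals mark the matched words on either strand, and each run is written in the direction of transcription.
Mki67, chr7:135716380-135716629, minus strand: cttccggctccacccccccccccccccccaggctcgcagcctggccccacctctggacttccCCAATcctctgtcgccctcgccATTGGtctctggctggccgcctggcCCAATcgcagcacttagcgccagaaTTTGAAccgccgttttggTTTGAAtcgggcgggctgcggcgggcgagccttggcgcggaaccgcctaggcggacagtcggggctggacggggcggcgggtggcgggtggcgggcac
Top2a, chr11:99024190-99024439, minus strand: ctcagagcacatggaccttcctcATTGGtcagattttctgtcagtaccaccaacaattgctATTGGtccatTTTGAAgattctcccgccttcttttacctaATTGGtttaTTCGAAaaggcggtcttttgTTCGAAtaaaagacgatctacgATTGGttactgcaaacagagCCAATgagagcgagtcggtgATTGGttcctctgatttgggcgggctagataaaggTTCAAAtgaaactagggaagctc
Cdk1, chr10:69352913-69353162, minus strand: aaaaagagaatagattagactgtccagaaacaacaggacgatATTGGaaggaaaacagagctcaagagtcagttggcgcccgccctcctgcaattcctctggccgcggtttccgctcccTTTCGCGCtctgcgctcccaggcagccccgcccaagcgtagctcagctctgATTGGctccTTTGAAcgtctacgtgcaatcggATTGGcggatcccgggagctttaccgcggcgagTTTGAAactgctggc
Mcm6, chr1:128359706-128359955, minus strand: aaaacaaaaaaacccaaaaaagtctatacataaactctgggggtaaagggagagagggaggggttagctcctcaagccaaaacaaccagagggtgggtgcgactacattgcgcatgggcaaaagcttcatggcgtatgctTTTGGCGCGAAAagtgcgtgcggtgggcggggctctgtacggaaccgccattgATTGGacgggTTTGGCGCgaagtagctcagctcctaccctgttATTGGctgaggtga
Cdk4, chr10:127063285-127063534, plus strand: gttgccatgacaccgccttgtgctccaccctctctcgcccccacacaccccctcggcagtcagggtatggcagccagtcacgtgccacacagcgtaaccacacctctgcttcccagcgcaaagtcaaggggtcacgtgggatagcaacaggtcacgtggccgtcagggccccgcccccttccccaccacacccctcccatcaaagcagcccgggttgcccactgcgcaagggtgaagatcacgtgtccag

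A CHR word stood in 11 of the 33 promoters (33.3%, against 17.1% of all 32851 mouse promoters searched in the same window), a CCAAT box in 26 (78.8%, against 33.8%) and an E2F word in 6 (18.2%, against 1.86%). By role, with no test, a CHR word was found in 8 of the 18 promoters of genes with mitotic roles (Mki67, Top2a and the last 4 groups named above) and in 3 of the 15 promoters of genes with G1 and S roles, a CCAAT box in 16 of 18 and in 10 of 15, and an E2F word in 1 of 18 and in 5 of 15. All 11 promoters with a CHR word also held a CCAAT box, a pair that 6.02% of all promoters held. These matches describe the letters of the window and say nothing about which factor was bound in these brainstems. For 30 of the 33 genes the RefSeq start was the start in the deposited table. For Cdc6 it was 262 bases away, so that its window, which held an E2F word, lay inside the gene as deposited.

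Levels spanned a wide range, and the genes of G1 and S held most of the signal. The summed level of the 40 transcripts was 204, 213 and 216 CPM in WT replicates 1, 2 and 3 and 200.01, 213 and 201 CPM in replicates 1, 2 and 3 labelled Rag1-/-, so that the ranges overlapped. The 5 highest transcripts, Ccnd1, Pcna, Cdk4, Ccnd2 and Rrm1, made up 63.1% of the sum. The mean was above 10 CPM for 6 genes, between 1 and 10 CPM for 20 and under 1 CPM for 14, and each of the 21 genes with mitotic roles was under 2.5 CPM. Per kb of exon, the median level was 0.291 CPM for the mitotic roles and 1.06 CPM for the G1 and S roles, and Pcna, the sliding clamp of DNA polymerases, was the highest of all at 19.2 CPM per kb. The lowest mean belonged to Bub1, a kinase of the spindle checkpoint, at 0.256 CPM with 7 to 12 reads a library, the nearest above the 0.1 CPM condition. No member lay below it. The median gene of the list stood at the 19.6th percentile of the tested genes, so most of these transcripts were scarce in whole brainstem.

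**Figure D1:**
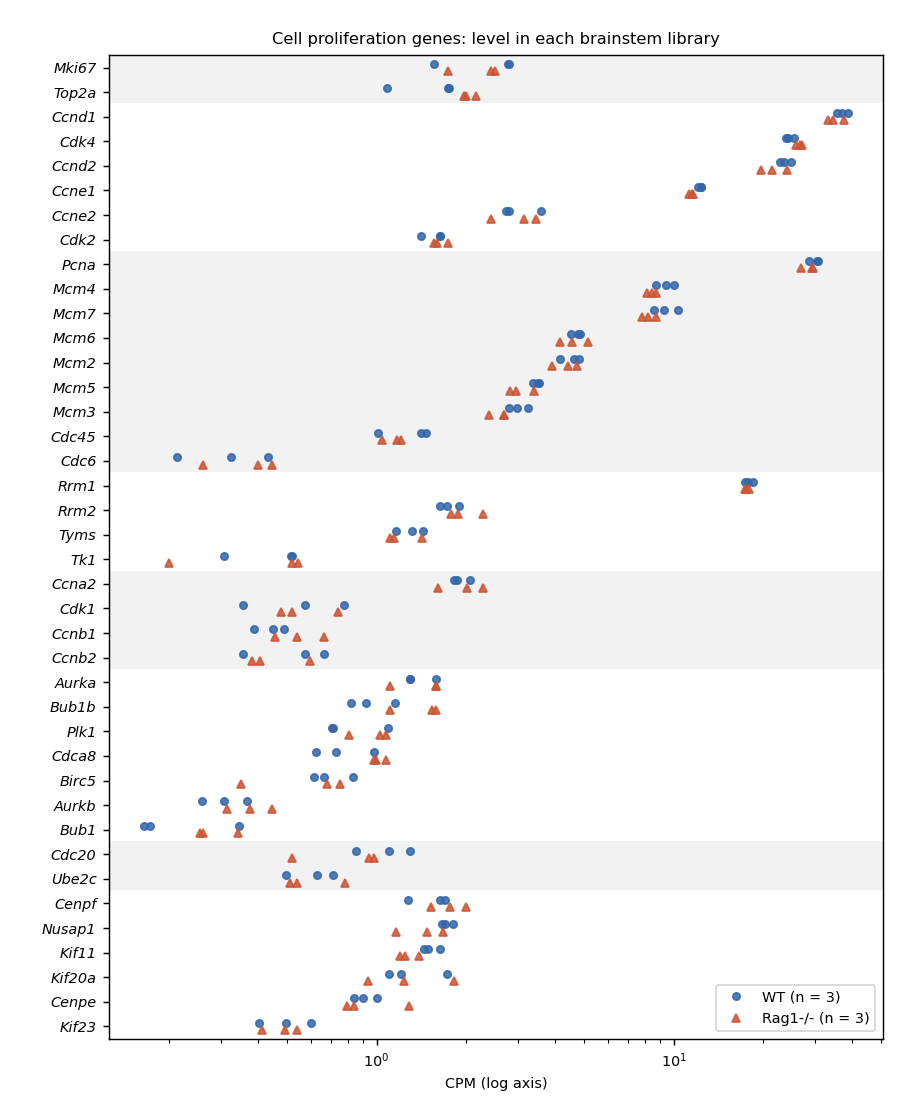
Level of each of the 40 transcripts in each library, in CPM on a log axis, with genes in rows grouped by role (alternating shading) and ordered by mean within a role. Circles are the 3 WT libraries and triangles the 3 labelled Rag1-/-, and the symbols of the genotypes are interleaved in most rows. Ccnd1, Pcna, Cdk4, Ccnd2, Rrm1 and Ccne1 lie above 10 CPM, and the mitotic genes lie under 2.5 CPM on average.

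No cell proliferation gene passed the test over all genes. In limma-trend on log2(CPM + 0.1), with Benjamini-Hochberg adjustment over 16762 genes, 0 of 40 had an adjusted p under 0.05, where 0.0477% of all tested genes (8 genes) did, and the smallest adjusted p among the 40 was 0.404. At a nominal (unadjusted) p up to 0.05, the p cut of the study's methods, which also required a minimum fold change that was not applied here, 0 of 40 were lower in brainstems labelled Rag1-/-, where 9.29% of all tested genes were. In the other direction 2 of 40 (5%), Bub1b and Cdk4, were higher, where 2.27% of all tested genes were. All 3 libraries labelled Rag1-/- were below all 3 WT libraries for 3 genes (7.5%, against 14.4% of all genes) and above them for 3 genes (7.5%, against 3.98%). These counts are small, and the split of calls over all genes depended on scaling. With quantile normalization 3.82% of all genes were lower and 5.10% higher at the same p, and with median-of-ratios rescaling 4.34% were lower and 4.78% higher. The median log2 fold change (Rag1-/- minus WT throughout) was -0.035 over the 40 genes and -0.051 over all tested genes, with 24 of the 40 and 11340 of the 16762 below 0. Both medians were above 0 with quantile normalization (0.058 and 0.0022), and that of the 40 genes also with median-of-ratios rescaling (0.0053).

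The precision of the comparison can be read from the intervals. For all 40 genes the 95% interval of the log2 fold change lay inside -1 to 1, as it did for 15394 of all tested genes, and for 18 of the 40 it lay inside -0.5 to 0.5, as it did for 12192 of the 16762. The narrower bound held for 16 of the 19 genes of G1 and S and for 2 of the 21 mitotic genes. The pseudocount of 0.1 CPM understates the change of low transcripts, so the bound is weakest for the mitotic genes. In whole tissue, fewer dividing cells and less RNA in each cannot be told apart.

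**Figure D2:**
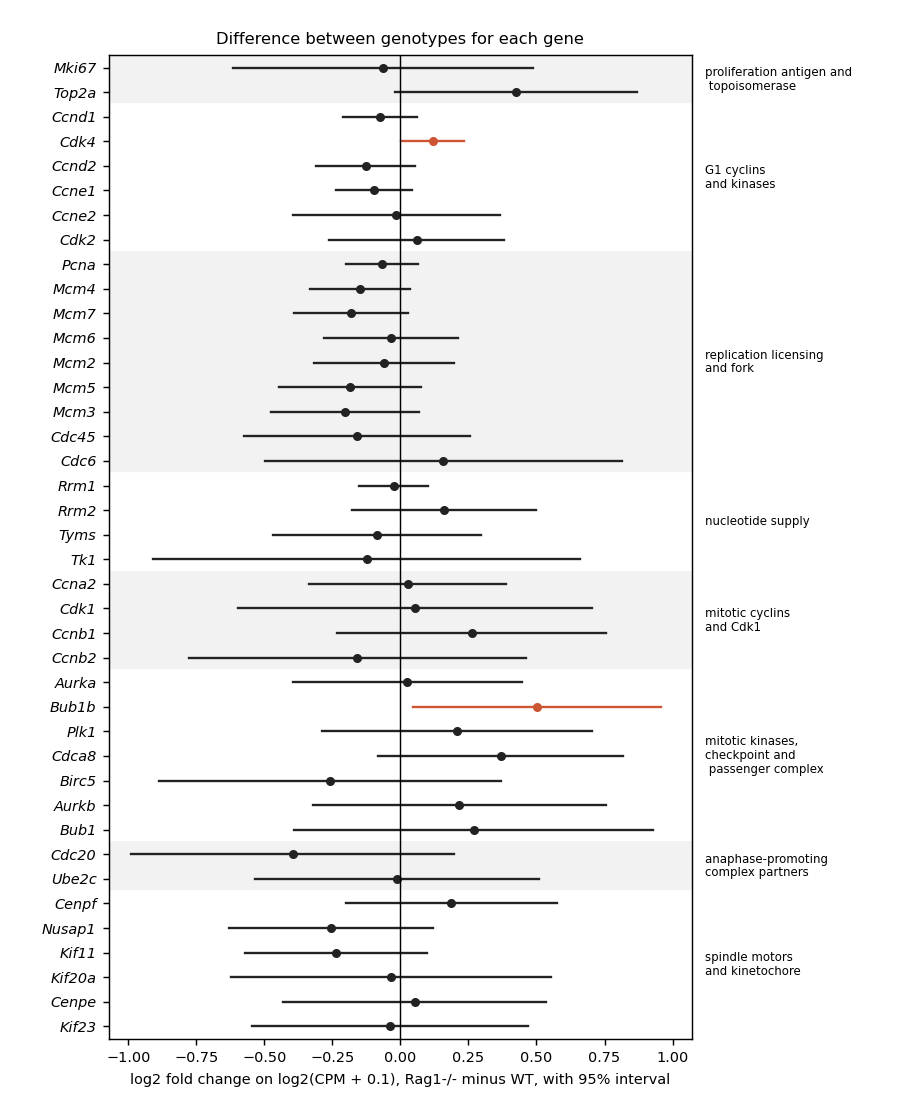
Log2 fold change of each transcript on the log2(CPM + 0.1) scale, libraries labelled Rag1-/- minus WT (n = 3 in each), with points at the limma-trend estimate and bars for the 95% interval, and genes grouped by role as named at the right. Orange marks Cdk4 and Bub1b, the 2 genes with a nominal p up to 0.05, and the bars of the other 38 genes cross 0.

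Mki67, which encodes the Ki-67 antigen found in cycling cells (chromosome 7, 135689788 to 135716379, minus strand, mm10), measured 1.56, 2.80 and 2.76 CPM for WT replicates 1, 2 and 3 and 1.73, 2.503 and 2.42 CPM for replicates 1, 2 and 3 labelled Rag1-/-. In each genotype 1 library was low and the other 2 were close to each other, and the ranges overlapped almost fully. Its log2 fold change was -0.064 (95% interval -0.61 to 0.49, limma-trend adjusted p = 0.935). The direction of Mki67 turned to 0.033 with quantile normalization, and without 1 library it ranged from -0.33 (without WT replicate 1) to 0.097 (without replicate 1 labelled Rag1-/-). Top2a, the topoisomerase that untangles replicated chromosomes (chromosome 11, 98992947 to 99024189, minus strand), was at 1.09, 1.75 and 1.75 CPM in WT and at 2.17, 1.96 and 1.99 CPM in brainstems labelled Rag1-/-. All 3 of the latter were above all 3 WT libraries, and WT replicate 1 was again the low library. The difference was 0.42 (standard error 0.19, 95% interval -0.020 to 0.87) with a nominal p of 0.0588 (limma-trend), or 0.444 once adjusted, and in the exact permutation test (two-sided) p was 0.1, which 3 samples against 3 cannot go below. Without WT replicate 1, or with a term in the fit for the 2 libraries high in Xist (the Xist term), it was 0.21, and with a pseudocount of 1, quantile normalization or median-of-ratios rescaling, or without WT replicate 2 or 3, its nominal p was under 0.05. Mki67 and Top2a, both used as markers of dividing cells, differed in sign on the deposited scale and were both positive with quantile normalization.

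Among the G1 cyclins and kinases the summed level was 102 ± 2.40 CPM in WT and 99.5 ± 5.24 CPM in brainstems labelled Rag1-/- (SD, n = 3). Cdk4, the kinase that D-type cyclins activate (chromosome 10, 127063535 to 127067288, plus strand), was at 24.2, 23.9 and 25.4 CPM in WT and at 26.7, 27.2 and 25.9 CPM in brainstems labelled Rag1-/-. It was higher in 3 of 3 of these libraries than in any WT library, by a small amount. Its log2 fold change was 0.12 (standard error 0.05, 95% interval 0.0023 to 0.23) with a nominal p of 0.0465 (limma-trend), or 0.429 once adjusted. The exact permutation test gave p = 0.1. The nominal call was kept without WT replicate 3 and was lost in the other 5 fits that each left out 1 library, with log2 fold changes of 0.10 to 0.14 in those 5. It was also lost without the limma trend and with a term for Xist (0.068). Ccnd1, its cyclin partner and the most abundant of the 40 transcripts (chromosome 7, 144929931 to 144939925, minus strand), was at 35.5, 38.5 and 36.7 CPM in WT and at 33.2, 37.5 and 34.4 CPM in brainstems labelled Rag1-/-. Ccnd2, the second D-type cyclin (chromosome 6, 127125709 to 127151048, minus strand), was at 23.5, 22.7 and 24.9 CPM in WT and at 19.7, 24.1 and 21.4 CPM in brainstems labelled Rag1-/-. Both cyclins overlapped between the genotypes, with log2 fold changes of -0.077 (95% interval -0.21 to 0.059) and -0.13 (-0.31 to 0.052). Without replicate 2 labelled Rag1-/- Ccnd2 was at -0.21 with a nominal limma-trend p under 0.05, and without replicate 1 labelled Rag1-/- at -0.060. Ccnd1 ran from -0.13 to -0.038 without replicates 2 and 1 labelled Rag1-/-, and was -0.034 with median-of-ratios rescaling. The D-type cyclins and their kinase had opposite signs, also with both other scalings. Ccne1, an E-type cyclin named after its values were seen, had the tightest replicates of the list, 12.1 to 12.4 CPM in WT and 11.3 to 11.6 CPM in brainstems labelled Rag1-/-, for a log2 difference of -0.097 (limma-trend adjusted p = 0.557). Ccne2 and Cdk2, the kinase that E-type cyclins activate, had -0.015 and 0.060.

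None of the replication licensing and fork genes passed the test. Of the 9 genes 8 had a negative log2 fold change, as did 11340 of all 16762 tested genes. Their median was -0.15, beside -0.051 over all tested genes, with a smallest nominal limma-trend p of 0.0798 for Mcm7 (adjusted p = 0.478). The median was -0.048 with quantile normalization, where 6 of the 9 were below 0, -0.099 with a pseudocount of 1 and -0.070 without WT replicate 2. It was -0.20 with the Xist term and -0.15 without WT replicate 1, with all 9 below 0 in both. Without replicate 2 labelled Rag1-/- it was -0.17. On the deposited scale their summed level was 64.9, 66.3 and 66.6 CPM in WT and 60.4, 64.0 and 59.5 CPM in brainstems labelled Rag1-/-. These ranges did not overlap, as was so in this direction for 14.4% of all single genes. The gap, from 64.0 to 64.9 CPM, was narrow, and the sums were not taken with the other scalings. The 6 subunits of the MCM helicase, Mcm2 to Mcm7, which are loaded as a ring on replication origins, summed to 33.3, 33.9 and 36.2 CPM in WT and to 29.6, 33.1 and 31.1 CPM in brainstems labelled Rag1-/-. All 6 were negative, from -0.20 for Mcm3 to -0.035 for Mcm6, with a median of -0.17. That median was -0.097 with quantile normalization, -0.11 without WT replicate 3, -0.19 with the Xist term and -0.20 without replicate 2 labelled Rag1-/-. Mcm2 and Mcm6 were positive with quantile normalization, and also once replicate 1 labelled Rag1-/- was left out. Mcm6 was positive with median-of-ratios rescaling. Mcm3, named after its values were seen, was below all WT libraries in all 3 libraries labelled Rag1-/- (2.80 to 3.23 CPM in WT and 2.40 to 2.69 CPM), with a nominal p of 0.123.

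Values per library follow for 2 helicase subunits and the clamp. Mcm2 and Mcm6 had the smallest changes of the 6 subunits. The others had -0.20 for Mcm3, -0.18 for Mcm5 and Mcm7 and -0.15 for Mcm4. Mcm2 (chromosome 6, 88883474 to 88898780, minus strand) was at 4.15, 4.80 and 4.63 CPM in WT and at 3.90, 4.40 and 4.73 CPM in brainstems labelled Rag1-/-. Mcm6 (chromosome 1, 128331575 to 128359705, minus strand), whose promoter is printed above, was at 4.51, 4.78 and 4.83 CPM in WT and at 4.13, 5.13 and 4.56 CPM. For these subunits the lowest library and, for Mcm6, also the highest carried the Rag1-/- label, and the log2 fold changes were -0.061 and -0.035. Pcna (chromosome 2, 132249286 to 132253180, minus strand) was at 30.4, 30.6 and 28.5 CPM in WT and at 29.5, 29.2 and 26.8 CPM in brainstems labelled Rag1-/-, a difference of -0.068 (95% interval -0.20 to 0.065). It was -0.0012 with the Xist term, -0.026 with median-of-ratios rescaling, -0.029 with quantile normalization, -0.024 without replicate 3 labelled Rag1-/- and -0.10 without WT replicate 3. Of the other 2 genes, Cdc45, a helicase partner, had -0.16, and Cdc6, which loads the helicase, had 0.16 at a mean of only 0.345 CPM.

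Genes of nucleotide supply summed to 21.4 ± 0.797 CPM in WT and 21.2 ± 0.473 CPM in brainstems labelled Rag1-/- (SD, n = 3). Rrm2, the subunit of ribonucleotide reductase made in S phase (chromosome 12, 24708254 to 24714146, plus strand), was at 1.72, 1.89 and 1.64 CPM in WT and at 2.28, 1.77 and 1.88 CPM in brainstems labelled Rag1-/-. Tyms, the thymidylate synthase (chromosome 5, 30058200 to 30073625, minus strand), was at 1.16, 1.31 and 1.44 CPM in WT and at 1.11, 1.43 and 1.14 CPM. Neither gene separated the genotypes, with log2 fold changes of 0.16 (95% interval -0.18 to 0.50) and -0.085 (-0.47 to 0.30). With 1 library left out they ran from 0.059 (without replicate 1 labelled Rag1-/-) to 0.23 and from -0.19 to -0.018 (without WT replicate 3), and Tyms turned to 0.040 with quantile normalization. Rrm1, the large reductase subunit that is also present outside S phase, had -0.025 with an interval of -0.15 to 0.10, and Tk1, the thymidine kinase of S phase, had -0.12 with an interval of -0.91 to 0.66, the widest of the list.

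Mitotic cyclins and Cdk1 were at 3.46 ± 0.381 CPM in sum in WT and 3.56 ± 0.270 CPM in brainstems labelled Rag1-/- (SD, n = 3). Cdk1, the kinase that starts mitosis (chromosome 10, 69336635 to 69352912, minus strand), was at 0.354, 0.775 and 0.575 CPM in WT and at 0.520, 0.475 and 0.740 CPM in brainstems labelled Rag1-/-, from 15 to 36 reads a library. Ccnb1, the B-type cyclin that activates it (chromosome 13, 100778739 to 100786486, minus strand), was at 0.448, 0.388 and 0.489 CPM in WT and at 0.664, 0.539 and 0.456 CPM. Ccna2, the A-type cyclin of S phase and G2 (chromosome 3, 36564865 to 36573038, minus strand), was at 1.86, 1.83 and 2.06 CPM in WT and at 2.29, 2.02 and 1.61 CPM. The genotypes overlapped for each of these, and the log2 fold changes were 0.053 (95% interval -0.60 to 0.70), 0.26 (-0.23 to 0.76) and 0.027 (-0.33 to 0.39). The directions of Cdk1 and Ccna2 turned with the Xist term (-0.012 and -0.074), and with 1 library left out they ran from -0.20 to 0.27 and from -0.082 to 0.16. Ccnb1 was at 0.14 both with the Xist term and without replicate 1 labelled Rag1-/-. Ccnb2, the second B-type cyclin, had -0.16.

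Of 7 mitotic kinases, checkpoint and passenger genes 6 had a positive log2 fold change, as did 5422 of all 16762 tested genes, with a median of 0.22. The median was 0.072 with a pseudocount of 1, 0.33 with quantile normalization, 0.14 without WT replicate 1, 0.39 without WT replicate 3 and 0.13 without replicate 2 labelled Rag1-/-. With a term for Xist it turned to -0.15, with 4 of the 7 genes below 0. The summed level was 4.98, 4.65 and 6.01 CPM in WT and 6.35, 5.89 and 6.01 CPM in brainstems labelled Rag1-/-. WT replicate 3 lay among the latter, so the sums overlapped. Bub1b, the checkpoint protein BubR1 that holds back anaphase until chromosomes are attached (chromosome 2, 118598211 to 118641592, plus strand), was at 1.16, 0.818 and 0.920 CPM in WT and at 1.59, 1.11 and 1.54 CPM in brainstems labelled Rag1-/-. Replicate 2 labelled Rag1-/- lay below WT replicate 1, and the other 2 were above every WT library. Its log2 fold change, the largest of the 40, was 0.50 (standard error 0.20, 95% interval 0.045 to 0.96) with a nominal p of 0.0349 (limma-trend), or 0.404 once adjusted, and the exact permutation test gave p = 0.2. The nominal call was lost without WT replicate 2 or 3 and without replicate 1 or 3 labelled Rag1-/-, with log2 fold changes of 0.40 to 0.48, and with a term for Xist (0.55).

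The passenger complex, which corrects faulty spindle attachments, was split. Cdca8, its subunit Borealin (chromosome 4, 124918465 to 124936917, minus strand), was at 0.732, 0.625 and 0.977 CPM in WT and at 0.982, 1.08 and 0.997 CPM in brainstems labelled Rag1-/-. All 3 of the latter were above WT, the lowest by a margin of under 1 read, and the log2 fold change was 0.37 (standard error 0.20, nominal limma-trend p = 0.0958, exact permutation p = 0.1). With quantile normalization (0.47) and without WT replicate 3 (0.53) its nominal p was under 0.05, and with the Xist term it was 0.053. Birc5, its subunit Survivin (chromosome 11, 117849237 to 117855743, plus strand), was at 0.614, 0.668 and 0.834 CPM in WT and at 0.751, 0.349 and 0.683 CPM. It had the opposite sign, -0.26 (95% interval -0.89 to 0.37), through the low value in replicate 2 labelled Rag1-/-, without which it was 0.030. Aurkb, its kinase (chromosome 11, 69045637 to 69051664, plus strand), was at 0.307, 0.366 and 0.259 CPM in WT and at 0.376, 0.444 and 0.313 CPM, with 0.22 (-0.32 to 0.75), which was 0.12 without WT replicate 3 or replicate 2 labelled Rag1-/- and 0.40 with the Xist term. Plk1, the Polo kinase of mitotic entry (chromosome 7, 122159435 to 122169884, plus strand), was at 0.708, 0.711 and 1.09 CPM in WT and at 0.809, 1.08 and 1.02 CPM, with 0.21 (-0.29 to 0.70). Its value turned to -0.16 with the Xist term and was 0.11 to 0.39 with 1 library left out. Aurka, the centrosome kinase, had 0.024, and Bub1 had 0.27 at 7 to 12 reads a library.

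Among the genes of mitotic exit and the spindle, Cdc20, the activator of the anaphase-promoting complex (chromosome 4, 118432901 to 118437343, minus strand), had the most negative log2 fold change of the 40. It was at 0.850, 1.10 and 1.29 CPM in WT and at 0.520, 0.982 and 0.940 CPM in brainstems labelled Rag1-/-. Replicate 1 labelled Rag1-/- was the lowest and the other 2 lay among the WT libraries, for a difference of -0.40 (standard error 0.26, 95% interval -0.99 to 0.20, limma-trend adjusted p = 0.569). Without replicate 1 labelled Rag1-/- it was -0.14, and with the term for Xist -0.65. Ube2c, the ubiquitin-conjugating enzyme that works with that complex, had -0.013. Nusap1, which bundles spindle microtubules (chromosome 2, 119618298 to 119650160, plus strand), was at 1.69, 1.66 and 1.81 CPM in WT and at 1.48, 1.17 and 1.67 CPM, with -0.25 (-0.63 to 0.12), and -0.12 without replicate 2 labelled Rag1-/-. The other 5 spindle and kinetochore genes, the kinesins Kif11, Kif20a and Kif23 and the kinetochore proteins Cenpe and Cenpf, had values from -0.24 for Kif11 to 0.19 for Cenpf. Kif11, named after its values were seen, was below all WT libraries in all 3 libraries labelled Rag1-/- (1.44 to 1.64 CPM in WT and 1.20 to 1.39 CPM), with a nominal p of 0.141.

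**Figure D3:**
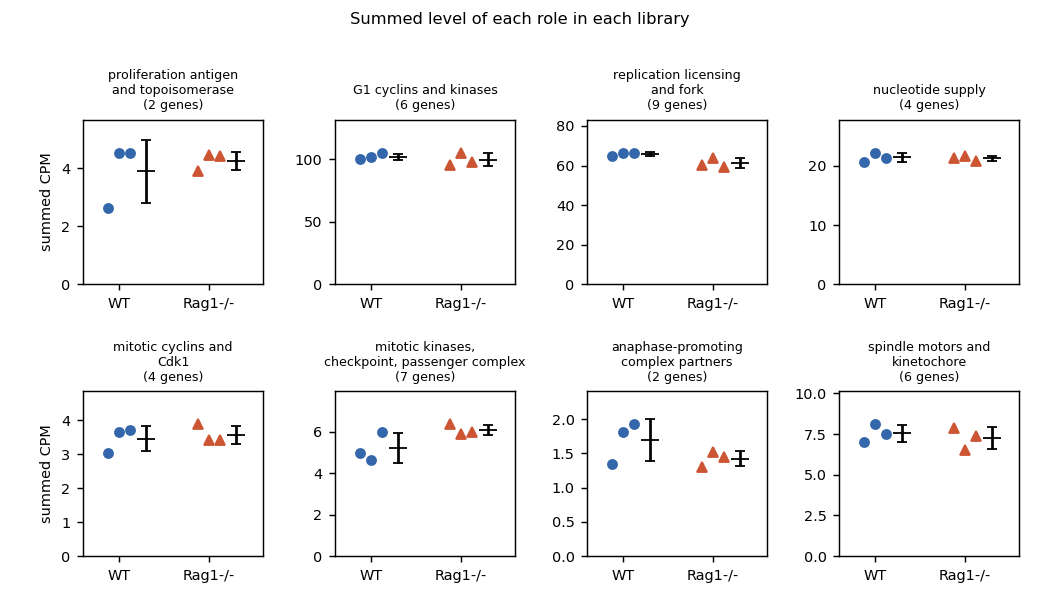
Summed level of each of the 8 roles in each library, in CPM from 0, with the number of genes above each panel. Circles are WT and triangles the brainstems labelled Rag1-/-, in the order of replicates 1 to 3, and the bar beside each group is the mean ± SD (n = 3). Replication licensing and fork is the panel whose genotypes do not overlap, at 64.9 to 66.6 CPM in WT and 59.5 to 64.0 CPM in brainstems labelled Rag1-/-. On this deposited scale 14.4% of all single genes were separated in the same direction, and the sums were not taken with the other scalings.

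Much of the scatter between replicates was of the size that read counting gives. The SD between libraries of a genotype was at most that expected from counting alone for 15 of the 40 genes, up to 1.5 times it for 19 and above 1.5 times it for 6, with a median ratio of 1.08. The 6 were Mki67 (2.33), Ccnd2 (2.23), Kif20a (2.10), Ccnd1 (1.92), Ccne2 (1.75) and Pcna (1.52). For Mki67, with 60 to 130 reads a library, the spread among animals of a genotype was larger than the difference between the genotypes and larger than that of counting. The median SD in percent of the mean was 23.3% for genes under 1 CPM, 12.2% between 1 and 10 CPM and 3.69% above 10 CPM. Counting error here assumes independent reads, and reads without molecular identifiers are not independent molecules.

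**Figure D4:**
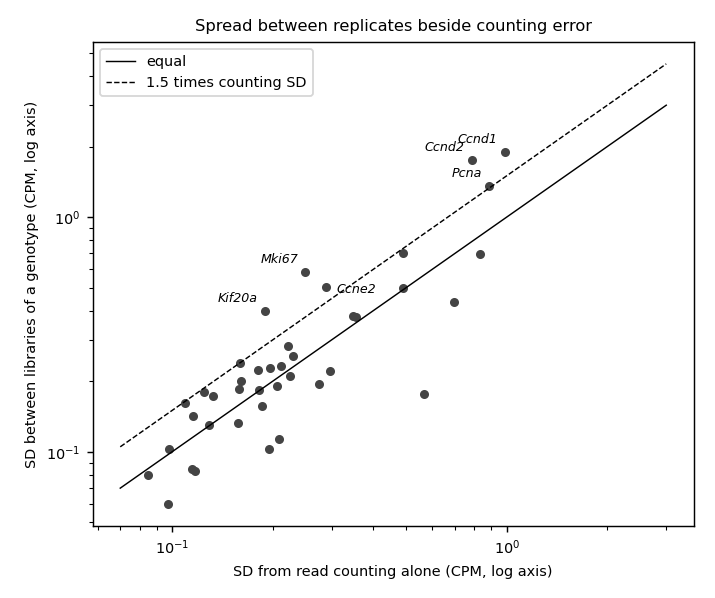
SD between the libraries of a genotype (pooled over the genotypes, in CPM) against the SD that read counting alone would give (in CPM), both on log axes, for the 40 transcripts. The solid line marks equality and the dashed line 1.5 times the counting SD, and the 6 named genes, Ccnd1, Ccnd2, Pcna, Mki67, Ccne2 and Kif20a, lie above the dashed line.

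The highest and lowest values were counted by library as a description. WT replicate 1 held the lowest value of 8 of the 21 mitotic genes and the highest of none, and replicate 1 labelled Rag1-/- held the highest value of 8 of the 21 and the lowest of 1. The same library labelled Rag1-/- had the lowest value of 9 of the 19 genes of G1 and S. WT replicates 2 and 3 held the highest value of 5 mitotic genes each, and of 6 and 5 genes of G1 and S. The summed mitotic level was 19.0, 22.8 and 23.7 CPM in WT and 23.3, 21.8 and 22.7 CPM in brainstems labelled Rag1-/-, and that of G1 and S was 185, 190.1 and 193 CPM in WT and 177, 191 and 178 CPM. Both sums overlapped between the genotypes.

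Lists of marker transcripts of other cells were counted in the same fit. In none of the lists below did a gene have a limma-trend adjusted p under 0.05, and over all tested genes 9.29% were lower and 2.27% higher at a nominal p up to 0.05. The part of these transcripts in the values above was not tested. Of 12 oligodendrocyte precursor genes 2, Gpr17 and Olig1, were higher at a nominal limma-trend p up to 0.05. The summed level of the 12 was 1140 to 1213 CPM in WT and 1240 to 1309 CPM in brainstems labelled Rag1-/-, with no overlap. Such a separation in this direction was found for 3.98% of all single genes. The median log2 fold change of the list was 0.031. The defining Pdgfra was at 67.0 ± 5.91 and 64.8 ± 3.96 CPM and Cspg4 at 31.9 ± 1.10 and 29.1 ± 1.81 CPM (SD, n = 3). Cspg4 went the opposite way from the sum, with all 3 libraries labelled Rag1-/- (27.0 to 30.5 CPM) below all 3 WT libraries (30.8 to 33.0 CPM) and a log2 fold change of -0.14 (limma-trend adjusted p = 0.432, exact permutation p = 0.1). Marrow granulocyte and precursor genes, which include dividing cells of bone marrow, were lower at that p for 6 of 9 tested, with sums of 6.47, 14.4 and 21.0 CPM in WT and 4.04, 5.23 and 7.46 CPM. Bone genes were lower for 5 of 6 (37.9 to 51.5 CPM in WT, 25.9 to 34.3 CPM in brainstems labelled Rag1-/-) and pituitary genes for 4 of 7, with 658 CPM in WT replicate 3 and at most 57.6 CPM elsewhere. Erythroid genes summed to 647 to 1883 CPM in WT and 898 to 1442 CPM in brainstems labelled Rag1-/-. The 6 tested genes of the cerebellar granule lineage reached 330 CPM in WT replicate 3 and 101 to 168 CPM in the other libraries. Among them Barhl1 was lower, and Atoh1, the marker of the dividing precursor, was not analysed here. Neural progenitor genes (70.1 to 80.1 and 67.7 to 70.6 CPM), microglial genes (239 to 276 and 248 to 268 CPM) and the lymphocyte genes, of which 4 passed the 0.1 CPM condition (1.81 to 2.65 and 1.73 to 2.28 CPM), had none at that p. The endothelial list had 1 of 6, Cdh5, lower (188 to 226 and 204 to 219 CPM).

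Other genes of the division programme, outside the 40, were counted in the same fit. Of 58 further genes of replication and mitosis, all tested, 2 were lower (Cdc25a and Cdt1) and 2 higher (Cdca3 and Pbk) at a nominal limma-trend p up to 0.05, 0 had an adjusted p under 0.05, and the median log2 fold change was -0.0050. Over all tested genes 9.29% were lower and 2.27% higher at that p. Cdca3, a mitotic-entry factor, was at 0.425, 0.689 and 0.604 CPM in WT and at 0.895, 1.24 and 0.997 CPM in brainstems labelled Rag1-/-, a difference of 0.77 (standard error 0.22, limma-trend adjusted p = 0.340). Cdc25a, the phosphatase that activates Cdk2, averaged 8.34 ± 0.141 CPM in WT and 6.93 ± 0.711 CPM in brainstems labelled Rag1-/- (SD, n = 3), with -0.27, and Cdt1, which loads the MCM helicase with Cdc6, had -0.43. The highest of this list were Anln at 70.6 ± 10.5 and 71.6 ± 7.17 CPM and Gins4 at 15.01 ± 1.27 and 14.7 ± 0.645 CPM (SD, n = 3). Of 12 tested cell cycle inhibitors 2 were lower at that p, Cdkn1b, the kinase inhibitor p27, at 39.5 ± 1.78 CPM in WT and 35.9 ± 1.24 CPM, and Btg2, an antiproliferative gene, at 8.35 ± 0.811 and 6.67 ± 0.860 CPM (SD, n = 3), with a list median of -0.064, beside the same 9.29% of all tested genes lower. Fzr1, the other activator of the anaphase-promoting complex and the highest of the inhibitors, had -0.076 with a nominal p of 0.126.

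Some counts may hold reads of neighbours or copies. In the deposited table, 8 of the 40 genes (Ccna2, Ccne2, Ccnd1, Ccnd2, Cdc20, Tk1, Kif20a and Nusap1) overlap another listed gene on the opposite strand, and whether the libraries keep the strand is not given in the sources used here. For 4 of the 40, Ccnb1, Ccnb2, Pcna and Tyms, the annotation names a pseudogene, so reads could have been split between them. In RefSeq, Top2a, Cdk4, Cdk2, Cdc45 and Kif11 also overlap another annotated gene, Tspan31 in the case of Cdk4.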

How the data were processed

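Brainstem RNA of 3 WT and 3 Rag1-/- mice was sequenced. After demultiplexing with bcl2fastq, the authors mapped reads by STAR 2.5.3a (mm10), took gene counts from the RefSeq model in Partek Flow, and deposited these as CPM, with a lowest value of 0.0001. The deposited genes held 79.1% to 80.4% of the scaled total. Of the low values, 85.2% to 86.7% lay within 0.1 read of a whole read, too few to recover counts, and a count test was not used. Read numbers and the counting SD are estimates from the CPM of 1 read inferred for each library. Every gene whose mean reached 0.1 CPM was tested on log2(CPM + 0.1) with limma-trend (limma 3.58.1, R 4.3.3) and Benjamini-Hochberg adjustment over all 16762, checked on simulated data. Single genes also had exact two-sided permutation tests (scipy 1.17.1). Length is the exon union of GENCODE M21 basic. Coordinates are those of the deposited table, the end being 1 base before the deposited stop.

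Single values of 2 marker genes are not reported here. The 40 genes and all lists were chosen with earlier results of these data known. Values per library are given for 17 genes listed by name, for those with p of at most 0.05, and for the 3 largest changes in each direction. Deviations of samples with the same number were not shared (correlations of 0.0926, -0.220 and -0.0183), so they were not paired. Alternatives were other pseudocounts, filters, scalings and variance models, a replicate block, an Xist term and leaving out each library.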

Additional observations from a re-analysis of the deposited data

How the results depend on the processing

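No cell proliferation gene had an adjusted p under 0.05 in limma-trend or in any of the 15 alternatives. The number with a nominal p up to 0.05 and a higher value in brainstems labelled Rag1-/- was 2, and it was 4 with quantile normalization (Top2a, Cdk4, Cdca8 and Bub1b), 1 without the limma trend, 1 with the replicate block (Bub1b, the blocked p of Cdk4 being 0.102), 0 with the Xist term and 0 to 3 with a library left out. It was 0 without replicate 1 or 3 labelled Rag1-/- and 3 without WT replicate 3 (Top2a, Cdk4 and Cdca8). The number lower was 0, and it was 2 without the trend (Mcm3 and Kif11), 2 with the Xist term (Mcm4 and Mcm7) and 0 to 1 with a library left out (Mcm7 without WT replicate 2, Ccnd2 without replicate 2 labelled Rag1-/-). Over the 40 genes the median difference was -0.035 on the log2 scale, and it was 0.058 with quantile normalization, 0.0053 with median-of-ratios rescaling, -0.020 with a pseudocount of 1, -0.062 over the 26 that pass a minimum of 1 CPM, -0.10 with the Xist term and -0.080 to -0.0032 with a library left out (-0.080, -0.0032 and -0.017 without WT replicates 1, 2 and 3). With the Xist term, the genotype difference rests on WT replicate 3 alone. That library also held 658 CPM of the pituitary genes and 330 CPM of the cerebellar granule genes. The other libraries held at most 57.6 CPM and 101 to 168 CPM of these. In the Xist-term values, sex and the tissue in that sample cannot be told apart. For the numbers of called genes and the median of the 40 the cause was not tested.

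Reversed log2 fold changes were Mki67 0.033, Mcm2 0.019, Mcm6 0.047 and Tyms 0.040 with quantile normalization, Mcm6 0.0063 with median-of-ratios rescaling, and Cdk1 -0.012, Ccna2 -0.074 and Plk1 -0.16 with the Xist term. With a library left out, Mki67 ranged from -0.33 to 0.097, Mcm2 from -0.12 to 0.013, Mcm6 from -0.11 to 0.039, Cdk1 from -0.20 to 0.27, Ccna2 from -0.082 to 0.16 and Birc5 from -0.43 to 0.030. Over the 20 genes with values per library, 97 of 120 values with a library left out and 157 of 173 others kept their direction and their side of the p threshold. Depth limits the 14 genes under 1 CPM most.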

Other observations

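The regulators that set the division programme were also present. Of 22 E2F, DREAM and MYB genes, all tested, 0 had a nominal limma-trend p up to 0.05 in either direction and 0 an adjusted p under 0.05, and the log2 fold changes ran from -0.37 for E2f2 (95% interval -1.09 to 0.35) to 0.30 for E2f8 (-0.39 to 1.00), with a median of 0.0079. Rbl2, the pocket protein p130 that represses division genes in resting cells, averaged 45.5 ± 1.27 CPM in WT and 43.5 ± 1.64 CPM in brainstems labelled Rag1-/- (SD, n = 3), and E2f6, a repressive E2F, at 28.6 ± 1.82 and 27.9 ± 0.387 CPM. These were the 2 most abundant of the list. Foxm1, an activator of mitotic genes, was far lower, at 2.06 ± 0.0848 and 2.24 ± 0.295 CPM, and Mybl2, which acts with it, at 0.429 ± 0.0861 and 0.392 ± 0.0848 CPM (SD, n = 3). Both were named after their values were seen.

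Of 8 G1 cyclins and cyclin-dependent kinases outside the 40 genes, 0 had a nominal limma-trend p up to 0.05, with a median log2 fold change of -0.045. Cdk5, the kinase of postmitotic neurons, averaged 71.5 ± 0.808 CPM in WT and 73.4 ± 2.37 CPM in brainstems labelled Rag1-/-, above every one of the 40 cell proliferation genes, and Ccng1 was at 44.0 ± 1.63 and 42.7 ± 1.90 CPM (SD, n = 3).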
